A study of Mus musculus with 8 samples.

Results

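Cytosolic ribosomal protein genes encode the protein part of the ribosomes that translate nuclear mRNAs in the cytoplasm. They were taken as the genes whose symbol begins with Rpl or Rps and a digit, begins with Rplp and a digit, or is Rpsa, leaving out the kinases whose symbols begin with Rps6k. Of the 3160 genes in the table, 41 matched. The large subunit was represented by 23 genes, which were Rpl3, Rpl5, Rpl6, Rpl7, Rpl10a, Rpl11, Rpl12, Rpl13, Rpl15, Rpl17, Rpl18, Rpl22, Rpl23, Rpl24, Rpl27, Rpl27a, Rpl35, Rpl36, Rpl36a, Rpl36al, Rpl37a, Rpl38 and Rpl39. The small subunit was represented by 18 genes, among them Rps3a1, Rps4x, Rps6, Rps7, Rps13, Rps14, Rps15, Rps16, Rps19, Rps20, Rps23, Rps24, Rps25, Rps27a and Rps28. Further ribosomal protein genes, among them Rplp0, Rplp1, Rplp2 and Rpsa, were not analysed here.

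Ribosomal proteins are needed in nearly equal numbers, because each ribosome holds a single copy of most of them. Their mRNAs are short and abundant, and most begin with a C followed by an unbroken run of C and T, the 5′ terminal oligopyrimidine (TOP) motif. Through this motif the protein Larp1 and the growth kinase mTOR can move the whole group between ribosomes and a stored, untranslated state, so that a cell can change its output of ribosomes without changing the amount of mRNA.

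The cells were E14Tg2A, a mouse embryonic stem (ES) cell line of strain 129/Ola. The ES stage was sampled at day 0 in serum with the cytokine LIF, and the epiblast-like aggregate (ELA) stage after 2 days as floating aggregates in a defined medium with N2 and B27 and without serum. In both stages cycloheximide was used to hold ribosomes on their mRNAs, and ribosomes were precipitated with an antibody against the endogenous large subunit protein Rpl10a (Rpl10a-IP), while a part of the same lysate served as total RNA (input). The 2 fractions of the 2 stages gave 4 groups with 2 libraries each, all of a single cell line, and no label says that the replicates were separate cultures, so the p-values measure the spread between these libraries. For the second input library of each stage the title and the source name disagree on the replicate number, and the title was followed.

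The Rpl10a-IP libraries held between 16076207 and 23483388 reads over the listed genes and the ES input libraries 3898414 and 5380139. The ELA input libraries held only 159587 and 410192, and the lowest ribosomal protein gene had 40 and 100 reads in them. These ELA input libraries differed from each other by no more than sampling noise (chi-square over degrees of freedom 0.957). The other groups gave 6.04 to 27.2, but this value grows with depth, and the ELA inputs were the shallowest. Their correlation over all genes was the lowest of the 4 groups (r = 0.984). Results that use them were also computed with both counted as 1 sample. The medians of the ribosomal protein genes were then −1.49 for ELA enrichment, −0.54 for total RNA and −1.11 for the change in enrichment. The first ELA input library was set aside by the study for low complexity, many duplicate reads and a weak correlation with the other libraries. Without it the ribosomal protein genes called lower numbered 39 in ELA enrichment, 33 in total RNA and 38 in the change in enrichment, with medians of −1.50, −0.52 and −1.12. The stages matched their labels: the 5 naive ES markers in the table summed to normalised counts of 18266 to 19413 in ES and 980 to 2148 in ELA, and Dnmt3b, which marks the epiblast, stood at 2862 to 3200 in ES and 18169 to 26387 in ELA. The neural marker Nes was at 269 to 375 in ES and 1184 to 2229 in ELA, and its part in the results was not tested. Of the endoderm, mesoderm and fibroblast markers and of the nuclear RNAs listed, 0 were among the genes of the table.

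Start-site sequences are shown first because the TOP motif is the feature that ribosomal protein mRNAs share. RefSeq start regions (GRCm38.p6, the same build as mm10) were at hand for 31 of the 41 genes. The search was for a C followed by at least 7 bases that are each C or T, on the coding strand, beginning between 20 bases before and 30 bases after an annotated start. Such a run was found in 17 of the 31 genes (54.8%), against 18.1% of all 27025 genes with a start region and 19.2% of 2417 other genes of the table. On the opposite strand of the same window it was found in 4 of the 31 genes and in 22.8% of all genes. The windows below belong to 6 genes on which the results turn, Rps15, Rps24 and Rpl38, whose ribosome enrichment was much lower in ELA, and Rps6, Rpl5 and Rpl10a, whose enrichment fell by little or did not pass. They lie at chr10:80292451-80292480 (Rps15, plus strand), chr14:24490671-24490700 (Rps24, plus strand), chr11:114668575-114668604 (Rpl38, plus strand), chr4:86857344-86857373 (Rps6, minus strand), chr5:107900503-107900532 (Rpl5, plus strand) and chr17:28328577-28328606 (Rpl10a, plus strand). Each is printed 5′ to 3′ with the pyrimidine run in capitals.
Rps15: ccgtaCTTCCTTTTCCgagtaaccgccaag
Rps24: ggggtCCTTCCTTgcgcgttgatatgattg
Rpl38: tcgttCTTTCCCCgttctcttcggttctca
Rps6: tcgggCCTCTTTTTCgtgacgcctcccagg
Rpl5: agccaCTCTTTCTCacgtcgcttgcgtgct
Rpl10a: ctctgCCTTCTTTCCggtttccgcggcagc
All 6 genes were chosen from those with a run. The 17 genes with a run had a median log2 change in ribosome enrichment of −0.97 (range −1.80 to 0.06) and the 14 without had −1.15 (range −2.06 to −0.33). The ranges overlapped over most of their length, and Rps19 and Rps16, which fell much, and Rps3a1, which fell little, had no run. Rps14, Rpl36, Rpl3 and Rpl7 were among the 10 genes not scanned. A run is a match of letters, and whether transcripts start there was not measured. Runs under 8 bases were not counted, and that of Rps15 began 25 bases after the annotated start. The comparison of genes with and without a run therefore cannot decide on the motif.

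The first comparison asked whether ribosomal protein mRNAs were found on ribosomes in proportion to their amount in ES cells. Ribosome enrichment is a gene's level in Rpl10a-IP over that in input, as a log2 ratio relative to the other genes of the library, and a lower value in bulk cells cannot tell fewer ribosome-bound copies in every cell from a subset of cells without them. Ribosomal protein mRNAs were mildly under-represented. Of the 41 genes, 29 were lower in Rpl10a-IP than in input, 0 were higher and 12 did not pass an adjusted p of 0.05 (limma), where 20% of all 3160 genes were called lower and 19.5% higher. Their median log2 ratio was −0.43, a 1.34-fold lower level, beside −0.02 over all genes, and no ribosomal protein gene was more than 2-fold lower (0.222% of all genes). When replicates were blocked and the trend of each library with transcript length and GC content was removed (the length-corrected fit), 22 were called lower and 3 higher, with a median of −0.18. With all 8 libraries in the fit, 25 were called lower. The medians of the large and small subunit genes were −0.44 and −0.41.

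Rps19, a protein of the head of the small subunit whose loss causes Diamond-Blackfan anaemia, was at 2933 and 2725 normalised counts in ES input and at 1517 and 1634 in ES Rpl10a-IP. The replicates of the 2 fractions did not overlap, and the log2 ratio was −0.84 (limma, SE 0.09, adjusted p = 2.74e-17, n = 2). In this comparison limma took each SE from the trend over all genes, so it is not the gene's own replicate error. Rps28, another head protein, had 3137 and 2856 in input and 1622 and 1716 in Rpl10a-IP, with a log2 ratio of −0.84 (SE 0.09). The next in size were Rps16 and Rpl38 with −0.82 each and Rps14 with −0.82. Rpl38 is a small protein near the subunit surface that is known for its part in the translation of Hox mRNAs.

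At the other end stood Rpl10a, the mRNA of the very protein that the antibody binds. It was at 4848 and 4372 in ES input and at 5646 and 4847 in ES Rpl10a-IP, and its log2 ratio of 0.18 (SE 0.09, adjusted p = 0.080) did not pass the threshold. Its length-corrected value was 0.49 and passed as higher (adjusted p = 2.33e-10). The lower Rpl10a-IP library lay just under the higher input library, so the fractions overlapped narrowly. Rpl5, which carries 5S rRNA into the large subunit together with Rpl11, had a log2 ratio of 0.01 (SE 0.09), and Rpl3, a protein near the peptidyl transferase centre, −0.09 (SE 0.09). Rpl11 itself was lower, with −0.44 (SE 0.09), as were Rps6, the substrate of S6 kinase, with −0.36, Rps27a, made as a fusion with ubiquitin, with −0.73, and Rpl36al, a near-copy of Rpl36a, with −0.24. The call of Rpl36al was lost with all 8 libraries (adjusted p = 0.11) and its value was 0.056 in the length-corrected fit. How reads shared by these near-copies, or by pseudogenes of ribosomal proteins, were divided is uncertain.

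The same comparison in ELA gave a far larger deficit. Of the 41 genes, 39 were lower in Rpl10a-IP than in input, 0 were higher and 2 did not pass, where 37.2% of all genes were called lower and 36.8% higher. More than 2-fold differences were called in 34 of the 41 genes and in 11.9% of all genes. The median log2 ratio was −1.48, a 2.80-fold lower level, beside −0.01 over all genes, and −1.46 for the large and −1.51 for the small subunit genes. Short transcripts were lower on the whole, since 85 other genes with transcripts under 1000 bases had a median of −1.01 and 65 of them were called lower. In the length-corrected fit, 27 ribosomal protein genes were lower and 5 higher, with a median of −0.45.

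Rps14, a platform protein whose human counterpart is lost in a myelodysplastic syndrome, had the lowest ratio of all 3160 genes in ELA. It was at 5737 and 3678 normalised counts in ELA input and at 446 and 236 in ELA Rpl10a-IP. The fractions lay far apart, although the input replicates differed by a wide margin, and the log2 ratio was −3.82 (limma, SE 0.18, adjusted p = 3.29e-19, n = 2), a 14.1-fold lower level. Rps19 was at 3426 and 2798 in ELA input and at 482 and 356 in ELA Rpl10a-IP, with a log2 ratio of −2.90 (SE 0.12, adjusted p = 5.26e-20).

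Rps16, another protein of the head, was at 1550 and 1632 in ELA input and at 270 and 240 in ELA Rpl10a-IP, a log2 ratio of −2.64 (SE 0.11). Rps15, also of the head, was at 2882 and 2449 against 576 and 407, a log2 ratio of −2.45 (SE 0.13). Rpl36, the large subunit gene with the lowest ratio, was at 1441 and 1060 against 283 and 179, a log2 ratio of −2.45 (SE 0.15). In each of these 3 genes both Rpl10a-IP libraries lay below both input libraries, which their choice by size of change made likely.

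Rpl10a and Rpl3 were the 2 genes that did not pass in ELA. Rpl10a was at 4105 and 3731 in ELA input and at 5260 and 4065 in ELA Rpl10a-IP, and its log2 ratio of 0.24 (SE 0.11) missed the threshold with an adjusted p of 0.056. It passed as higher with the replicate block (adjusted p = 0.024), with median-of-ratios scaling (0.046), with both ELA inputs counted as 1 sample (0.036) and in 7 libraries without ELA input replicate 1 (0.0060). The length-corrected fit gave 1.22 (adjusted p = 2.70e-37). The ELA Rpl10a-IP libraries decided its value without the correction, which was 0.05 without replicate 1 and 0.43 without replicate 2. Rpl3 was at 12343 and 13579 in input and at 11962 and 11657 in Rpl10a-IP, with a log2 ratio of −0.13 (SE 0.10), and passed as lower with total reads (−0.24, adjusted p = 0.017). Rpl5 had −0.32 (SE 0.09, adjusted p = 0.0030), Rpl11 −1.04, Rps6 −0.83, Rps27a −2.17 and Rpl36al −1.48, all called lower. After the length correction, Rpl5 (0.025), Rpl11 (−0.12), Rps6 (−0.0035) and Rpl36al (−0.14) were no longer called, and Rpl3 was called higher (0.34).

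**Figure D1:**
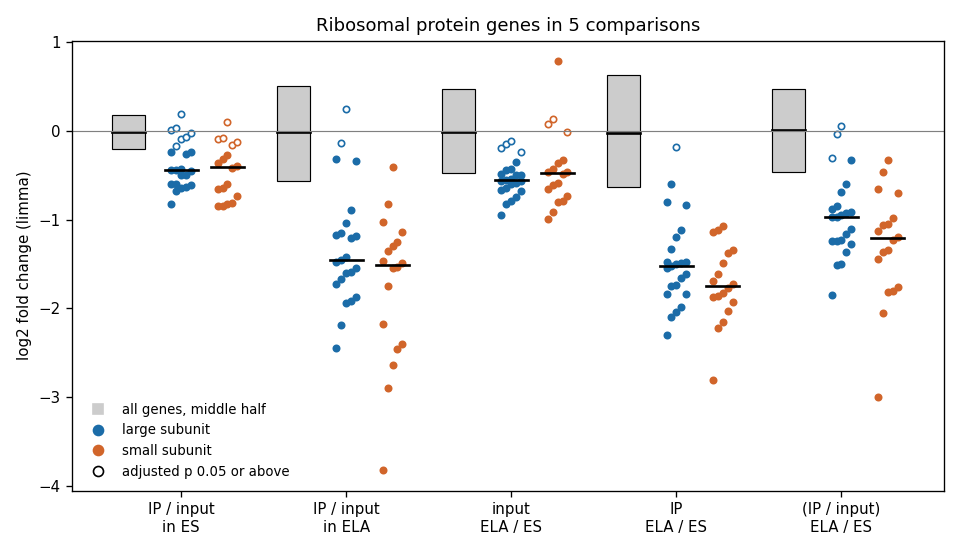
Log2 fold changes by limma in the 5 comparisons (x axis), with a point for each ribosomal protein gene (23 large subunit, blue; 18 small subunit, orange), open where the adjusted p was 0.05 or above, and a black line at each median. Grey boxes span the interquartile range of all 3160 genes; the ribosomal protein medians lie at −0.43, −1.48, −0.54, −1.62 and −1.11, and the all-gene medians within 0.03 of 0.

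Total RNA was compared next, to see whether the amount of these mRNAs differed between the stages. It was lower in ELA for most of them, by less than 2-fold in every case. Of the 41 genes, 33 were lower in ELA than in ES input, 1 was higher and 7 did not pass, where 35.8% of all genes were called lower and 34.5% higher. The median log2 change was −0.54 (1.45-fold lower) beside −0.02 over all genes, with −0.55 for the large and −0.47 for the small subunit genes. The 85 other genes with short transcripts had a median of −0.49. In the length-corrected fit, 10 ribosomal protein genes were lower and 9 higher, with a median of −0.01.

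Large falls were those of Rps16 (log2 change −0.99, SE 0.11), Rpl36a (−0.95, SE 0.11), Rps28 (−0.91, SE 0.11) and Rpl37a (−0.82, SE 0.12). Rpl36a, for example, was at 14037 and 12444 in ES input and at 6253 and 7463 in ELA input, without overlap. Rps14 was the 1 gene that rose, from 2963 and 2399 in ES input to 5737 and 3678 in ELA input, a log2 change of 0.78 (SE 0.18, adjusted p = 1.75e-04). Its ELA libraries lay above its ES libraries, but the value was 1.11 with ELA input replicate 1 alone and 0.46 with replicate 2 alone. The 7 genes that did not pass were Rps15 (0.08), Rps19 (0.13) and Rps24 (−0.01) of the small subunit and Rpl10a (−0.23), Rpl15 (−0.19), Rpl17 (−0.11) and Rpl23 (−0.15) of the large subunit.

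Of the genes followed in every comparison, Rpl5 (−0.50), Rpl11 (−0.60), Rpl3 (−0.56), Rps6 (−0.61), Rps27a (−0.59) and Rpl36al (−0.74) fell in total RNA, each with an SE between 0.09 and 0.12. After the length correction, Rpl11 (−0.010), Rpl3 (−0.072), Rps6 (−0.024), Rps27a (0.0042) and Rpl36al (−0.11) were no longer called, and Rpl5 was. Rpl10a changed by −0.23 (SE 0.11, adjusted p = 0.066), passed as lower with the authors' size factors, the replicate block, the ELA inputs counted as 1 sample or 7 libraries (adjusted p from 0.0077 to 0.044), and was higher in the length-corrected fit (0.32).

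In ribosome-bound RNA the difference between the stages was larger. Of the 41 genes, 40 were lower in ELA than in ES Rpl10a-IP, 0 were higher and 1 did not pass, where 42.3% of all genes were called lower and 41.1% higher. More than 2-fold falls were called in 37 of the 41 genes, among them all 18 of the small subunit, and in 14.4% of all genes. The median log2 change was −1.62 (3.07-fold lower) beside −0.02 over all genes, with −1.52 for the large and −1.75 for the small subunit genes. The other genes with transcripts under 1000 bases had a median of −1.31, and 72 of the 85 were called lower. In the length-corrected fit, 24 ribosomal protein genes were lower and 5 higher, with a median of −0.31. The share of all reads over the listed genes that fell on ribosomal protein genes was 5.92% and 6.25% in ES Rpl10a-IP and 2.50% in each ELA Rpl10a-IP library, while it was 7.91% and 7.33% in ES input and 5.71% and 5.83% in ELA input. The 95% Wilson interval was widest in ELA input replicate 1 (5.60% to 5.83%) and covers counting error only.

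Rps16 fell most, from 1919 and 1664 in ES Rpl10a-IP to 270 and 240 in ELA Rpl10a-IP, a log2 change of −2.81 (limma, SE 0.09, n = 2) or 6.99-fold. Rpl36 fell from 1087 and 1133 to 283 and 179, a log2 change of −2.30 (SE 0.10), and Rps14 from 1459 and 1566 to 446 and 236, a log2 change of −2.22 (SE 0.09). The stages were far apart in all 3 genes, with ELA replicates of Rps14 and Rpl36 that differed more than the ES replicates did. The SEs here again come from the trend over all genes and not from the gene's own replicates. Leaving out 1 library at a time moved Rps14 between −2.68 and −1.76 and Rpl36 between −2.62 and −1.97. Rpl37a fell by 2.09 on the log2 scale (SE 0.10).

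Rpl10a was again the exception, at 5646 and 4847 in ES Rpl10a-IP and 5260 and 4065 in ELA Rpl10a-IP, which overlapped, and its log2 change was −0.18 (SE 0.09, adjusted p = 0.051). It passed as lower with total reads (0.036), the authors' size factors (0.0042), the replicate block (0.040) and array weights (0.044), and as higher in the length-corrected fit (log2 change 1.04). Rpl3, with 17621 and 18232 against 11962 and 11657, fell by 0.60 on the log2 scale, close to its fall in input. Rpl5 changed by −0.83, Rps6 by −1.07, Rpl11 by −1.20, Rpl36al by −1.98 and Rps27a by −2.03, and these 5 passed. After the length correction, Rpl3 (0.21) and Rps6 (0.16) were called higher and Rpl11 (0.053) was not called.

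**Figure D2:**
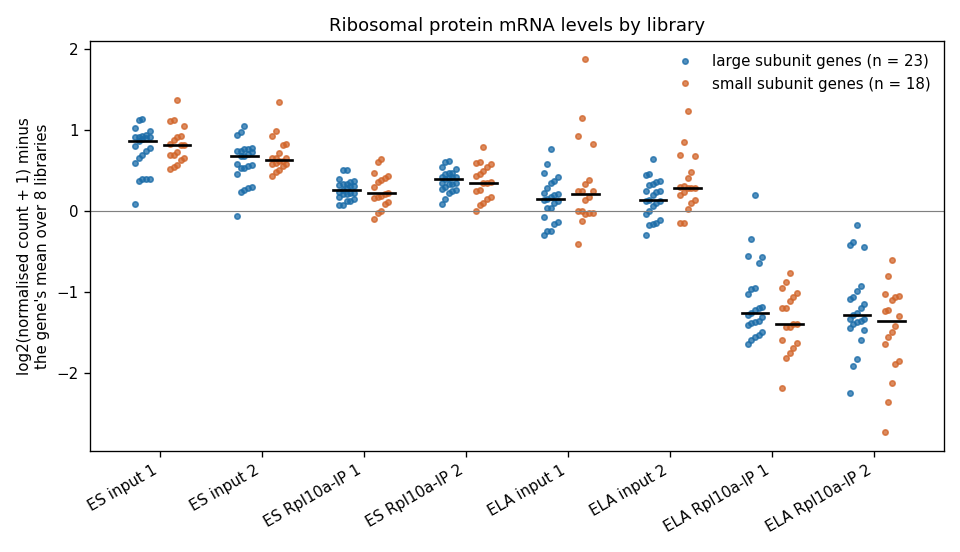
Level of each ribosomal protein gene in each of the 8 libraries (x axis) as log2(normalised count + 1) minus the gene's own mean over the libraries (y axis), large subunit genes in blue (23) and small in orange (18), with a black line at the median of each class. The medians of all 41 genes lie at 0.82 and 0.65 in ES input, 0.23 and 0.36 in ES Rpl10a-IP, 0.17 and 0.24 in ELA input, and −1.28 and −1.29 in ELA Rpl10a-IP.

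The change in ribosome enrichment sets the ELA ratio against the ES ratio of each gene and so tests whether ribosome association differed beyond the amount of mRNA. Of the 41 genes, 38 had a lower ratio in ELA, 0 a higher ratio and 3 did not pass, where 27.7% of all genes were called lower and 28.4% higher. More than 2-fold lower ratios were called in 23 genes (10 of the 23 large and 13 of the 18 small subunit genes) and in 9.05% of all genes. The median log2 difference was −1.11 (2.16-fold lower) beside 0.01 over all genes, with −0.97 for the large and −1.21 for the small subunit genes. Among the 85 other genes with transcripts under 1000 bases the median was −0.79 and 53 were called lower. In the length-corrected fit, the median of the ribosomal protein genes was −0.31, 22 were called lower and 5 higher.

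Rps14 had the largest fall in ratio of all 3160 genes. Its Rpl10a-IP to input ratio was 0.49 and 0.65 in the ES lysates and 0.078 and 0.064 in the ELA lysates, a log2 difference of −3.00 (limma, SE 0.25, adjusted p = 1.28e-11, n = 2) or 8.02-fold. Rps19 had ratios of 0.52 and 0.60 in ES and 0.14 and 0.13 in ELA (log2 difference −2.06, SE 0.18, adjusted p = 2.53e-11). In both genes both ELA lysates lay well below the ES lysates. The study describes a filter on the spread of counts, and the deposited values appear to be filtered on the spread of this ratio. Close replicates of the ratio are therefore in part a result of the filter. On the scale used here some still differed, as those of Rpl6 in ES (0.61 and 0.82).

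Rpl36 had ratios of 0.63 and 0.70 in ES and 0.20 and 0.17 in ELA, a log2 difference of −1.85 (SE 0.21). Rps16 had 0.60 and 0.53 against 0.17 and 0.15, a difference of −1.81 (SE 0.16), and Rps15 had 0.57 and 0.71 against 0.20 and 0.17, a difference of −1.80 (SE 0.18). None of these 3 genes overlapped between the stages, which their choice by size of change made likely. Of the 5 genes with the largest falls, 4 belong to the small subunit.

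Rpl10a, Rpl3 and Rpl7 were the 3 genes that did not pass. Rpl10a had ratios of 1.16 and 1.11 in ES and 1.28 and 1.09 in ELA, which overlapped (log2 difference 0.06, SE 0.16, adjusted p = 0.79). Its length-corrected value was 0.72 and passed as higher (adjusted p = 2.95e-07). Rpl3 had 0.89 and 0.99 in ES and 0.97 and 0.86 in ELA, which also overlapped (log2 difference −0.04, SE 0.14). Rpl7, a large subunit protein with RNA-binding activity, had a difference of −0.31 (SE 0.14, adjusted p = 0.058). Small falls that passed were those of Rpl5 (−0.33, adjusted p = 0.036) and Rps3a1 (−0.33, adjusted p = 0.048), where that of Rpl5 no longer passed with array weights (0.053), with the authors' size factors (0.051) or without any 1 of 5 libraries (0.084 to 0.17), namely ES input replicate 2, either ES Rpl10a-IP replicate, ELA input replicate 2 or ELA Rpl10a-IP replicate 1. Rps3a1 likewise no longer passed with array weights (0.053), with the authors' size factors (0.061) or without any 1 library other than ELA input replicate 1 or ELA Rpl10a-IP replicate 2 (0.055 to 0.20), and it was called higher in the length-corrected fit (0.30). Array weights and the authors' size factors each left 36 genes called lower. Rps6 (−0.47) and Rpl11 (−0.61) fell more, although both missed the threshold without ES input replicate 2 (0.052 and 0.051), and Rpl36al (−1.24) and Rps27a (−1.44) more again. After the length correction, Rpl5 (0.11), Rpl11 (0.064), Rps6 (0.18) and Rpl36al (−0.20) were no longer called, and Rpl3 was called higher (0.28).

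**Figure D3:**
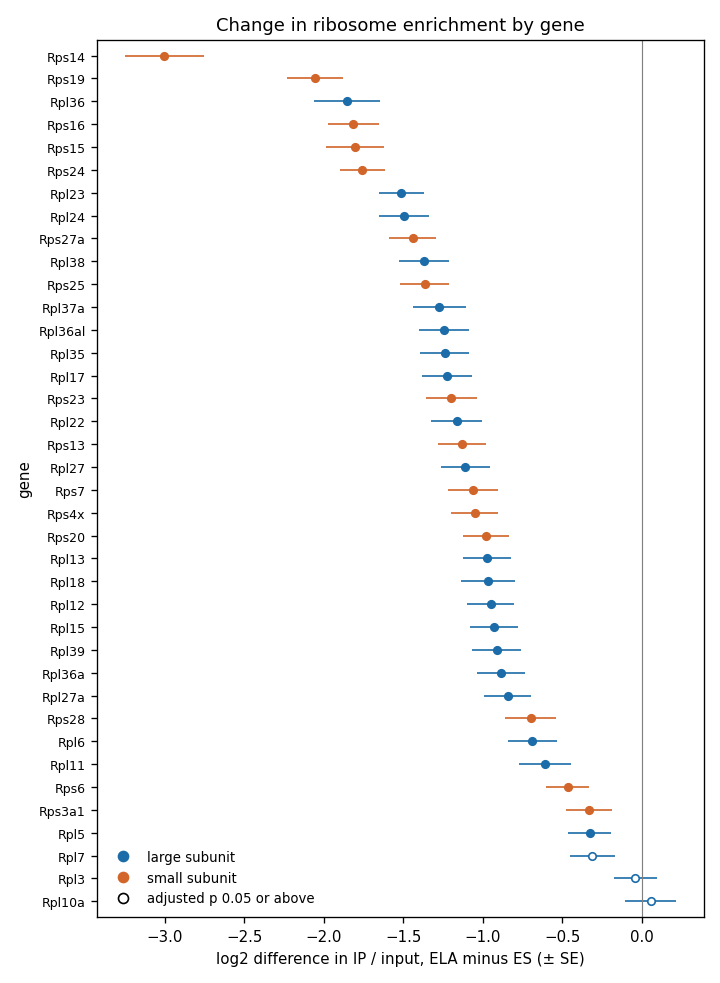
Difference in log2 Rpl10a-IP to input ratio between ELA and ES (x axis, point and SE by limma) for 38 of the 41 ribosomal protein genes (y axis), large subunit genes in blue and small in orange, open where the adjusted p was 0.05 or above. The values run from −3.00 for Rps14 to 0.06 for Rpl10a, and 3 points are open.

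Large and small subunit genes were then set against each other within each library, where scaling cancels. Summed normalised counts of the 23 large subunit genes were 1.44 and 1.40 times those of the 18 small subunit genes in ES input, 1.55 and 1.53 times in ES Rpl10a-IP, 1.33 and 1.35 times in ELA input, and 1.94 and 1.90 times in ELA Rpl10a-IP. The ELA Rpl10a-IP libraries thus stood above all others and the ELA input libraries below all others. Abundant genes carry most of these sums, and Rpl5 and Rps3a1 led their classes in every library. Without them the ratio was still 1.86 and 1.83 in ELA Rpl10a-IP, against 1.24 to 1.49 in the other libraries.

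Counted gene by gene the classes were closer. Taken as the median over genes of the log2 level relative to each gene's own mean, the large minus small difference, relative to the mean of the 8 libraries, was 0.08 in ELA Rpl10a-IP and −0.13 in ELA input, against 0.32 and −0.20 with sums. The difference between the class medians was −0.02 for ES enrichment, 0.05 for ELA enrichment, −0.08 for total RNA, 0.22 for ribosome-bound RNA and 0.24 for the change in enrichment. The length-corrected fit turned it to 0.13 for ES enrichment and to −0.034 for ribosome-bound RNA, and without ELA input replicate 1 it was −0.018 for total RNA. Within each class the values ranged widely, from −1.85 to 0.06 among the large and from −3.00 to −0.33 among the small subunit genes for the change in enrichment, so the classes overlapped over most of their range. Members are not replicates, and no test was made between the classes.

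**Figure D4:**
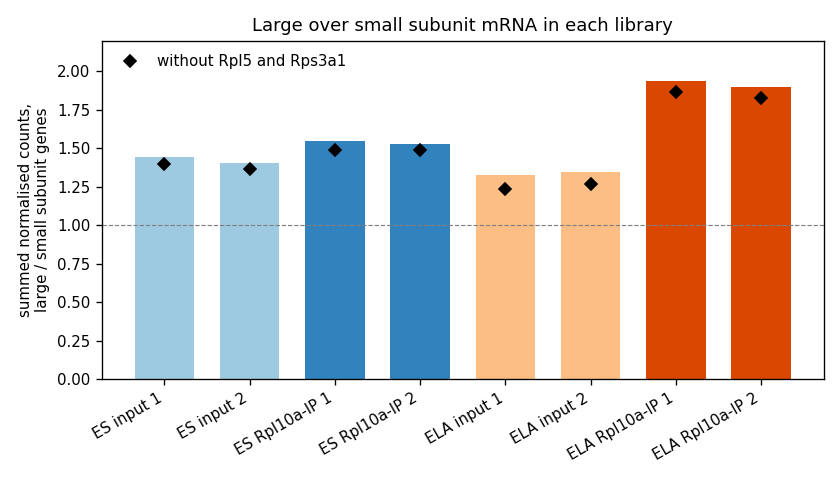
Summed normalised counts of the 23 large subunit genes divided by those of the 18 small subunit genes (y axis, from 0) in each of the 8 libraries (x axis); bars hold all genes and diamonds leave out Rpl5 and Rps3a1. The ELA Rpl10a-IP bars reach 1.94 and 1.90, and the other bars lie between 1.33 and 1.55.

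By position in the ribosome, the genes of the small subunit head (8 in the table, among them Rps15, Rps16, Rps19 and Rps28) had a median change in enrichment of −1.40, and all 8 were called lower, as were 38 of all 41 ribosomal protein genes and 27.7% of all genes. The 10 genes of the body and platform, among them Rps6 and Rps14, had a median of −1.10 and ranged from −3.00 to −0.33, and all 10 were called lower. The 4 genes around the exit of the polypeptide tunnel (Rpl17, Rpl22, Rpl35 and Rpl39) lay close together between −1.24 and −0.91. Rpl12, the 1 gene of the stalk base in the table, had −0.95, and Rpl5 and Rpl11 of the 5S particle had a median of −0.47. These classes hold few genes and were not tested against each other.

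Coding length, which the symbol rule did not use, varied with these values. Across the 41 genes, the log2 coding length correlated with the ES enrichment at r = 0.51, with the ELA enrichment at r = 0.51, with the change in total RNA at r = 0.11, with the change in ribosome-bound RNA at r = 0.59 and with the change in enrichment at r = 0.44, given as descriptions over genes that share the same libraries. The last was 0.64 over the 23 large and 0.27 over the 18 small subunit genes. The 11 genes with a coding length over 600 bases, among them Rpl3, Rpl5, Rpl7, Rpl10a, Rps3a1 and Rps6, had a median change in enrichment of −0.47 (range −1.05 to 0.06). The 30 shorter genes had −1.23 (range −3.00 to −0.61).

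Among 3078 other genes the log2 transcript length correlated with the change in enrichment at r = 0.44, and those over 3000 bases had a median of 0.20. The ribosomal protein genes had a median transcript length of 780 bases, against 3480 over all genes. The part of length in the results was not tested beyond the correction given above.

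**Figure D5:**
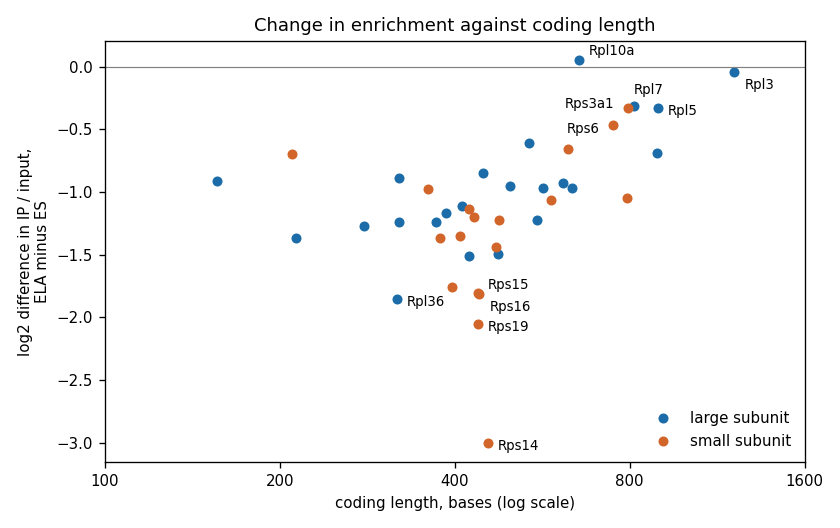
Change in log2 Rpl10a-IP to input ratio from ES to ELA (y axis) against coding length in bases (x axis, log scale) for the 41 ribosomal protein genes, large subunit in blue and small in orange. The 11 genes over 600 bases lie between −1.05 and 0.06, and the 30 shorter genes between −3.00 and −0.61.

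Levels were compared between genes per kilobase of coding sequence. Reads were counted over whole genes, untranslated parts included, so genes with long untranslated parts rank too high by this measure. Rpl5, for example, had a listed transcript of 2045 bases for 894 coding bases, and Rps24 had 434 for 396. The order below is therefore not one of transcript numbers. In ES input Rps24 stood highest, with 50630 normalised counts per kilobase, followed by Rpl36a (41247), Rpl23 (41218) and Rpl5 (37138), and Rpl18 was lowest with 2976. The first and last differed by far more than the replicate spread, while Rpl36a and Rpl23 did not differ beyond it. In ELA input Rps24 was again highest with 50331. In ES Rpl10a-IP Rpl5 stood highest with 37303, followed by Rpl36a (34303) and Rps24 (32344). In ELA Rpl10a-IP Rpl5 led again with 20972, followed by Rpl7 (11093), Rps3a1 (10820), Rpl3 (9744) and Rps6 (9734), and Rps24 was eighth in the order with 9521. Rpl10a was at position 34 of the 41 in ES input, 28 in ES Rpl10a-IP, 33 in ELA input and 11 in ELA Rpl10a-IP, and Rps14 at 38, 40, 19 and 39 in the same order. The genes at positions 4 to 8 in ELA Rpl10a-IP lay between 9744 and 9521, closer together than the replicates of Rps24 (3506 and 4035 normalised counts).

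Other genes of the pathway were taken from lists of known function, as whole lists, and their counts are to be read against all genes, of which 27.7% had a lower and 28.4% a higher ratio in ELA than in ES. Gnb2l1, a scaffold protein of the small subunit and the 1 of 4 further ribosomal proteins in the table, had a change in enrichment of −0.46 (SE 0.15). Of 16 other TOP mRNAs in the table, which encode translation factors and a few more proteins, 7 had a lower ratio in ELA, 2 a higher ratio and 7 did not pass, and the median was −0.29. The largest falls among them were those of Ybx1, an mRNA-binding protein (−1.83, SE 0.15), Nap1l1, a histone chaperone (−1.20, SE 0.14), and Tpt1, the translationally controlled tumour protein (−1.08, SE 0.15). In ELA enrichment 11 of the 16 were lower and 3 higher, with a median of −0.46, where 37.2% of all genes were lower and 36.8% higher.

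Among the regulators of TOP mRNAs, 6 were in the table, and 4 had a higher ratio in ELA and 1 a lower one, with a median of 0.58. The ratio of Mtor itself rose (1.13, SE 0.16), as did that of the scaffold factor Eif4g1 (0.92, SE 0.14), and that of Rheb, the small GTPase that activates mTOR, fell (−1.35, SE 0.18). No value of these lists carries the length correction. Among genes outside the family the median change was 0.20 for transcripts over 3000 bases and −0.79 for those under 1000 bases. The part of transcript length in these lists was not tested. Of 14 ribosome assembly factors, 5 rose and 3 fell in ratio, with a median of −0.23. Mdn1, a giant AAA ATPase, and Utp20, a processome scaffold, rose by 1.62 and 1.497, and Nhp2, a small snoRNP protein, fell by 1.17. Of 11 mitochondrial ribosomal protein genes, which serve the separate ribosomes of mitochondria, 5 fell in ratio and 2 rose (median −0.48), led by Mrpl18 (−1.36), Mrpl12 (−1.30) and Mrps25 (−0.98). In total RNA 8 of these 11 fell and 0 rose, with a median of −0.54, where 35.8% of all genes fell.

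By profile over the 8 libraries, 39 of the 41 genes followed the mean of the other ribosomal protein genes at r of 0.85 or more. The 2 exceptions were Rpl10a, with an r of 0.00049, and Rpl3, with 0.80. Rps3a1 and Rps14 (both 0.85), Rpl5 (0.86) and Rpl7 (0.87) were the next lowest. Among 1887 other genes with at least 20 reads in each library, the 5 most like the mean profile were Hnrnpc, Grpel1, Cbx1, Ranbp1 and Cfl1, with r from 0.995 to 0.998. Their changes in enrichment ran from −1.17 for Cbx1 to −0.90 for Ranbp1, close to the median of the ribosomal protein genes. They were picked for this likeness, and the 8 points of each profile share their libraries.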

How the data were processed

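Ribosome-bound and total RNA of 4 groups with 2 libraries each was depleted of rRNA, sequenced and, per the labels and the study's methods, aligned with TopHat2 to mm10, counted per gene with HTSeq and divided by DESeq2 size factors. The deposited table holds the resulting normalised counts (unit: signal) of 3160 genes that the authors had filtered on mean level and on spread between replicates, so adjusted p-values are likely too small. The study describes that spread as one of counts, while the deposited values appear to be filtered on the spread of the ratio. Whether counting used strand is not given in the sources used here. A further 26 deposited columns (means, ratios and the authors' own comparisons) were not used.

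Dividing each deposited value by the worth of 1 read gave whole reads in 100% of values (tolerance 1e-06), from which depth was taken. The libraries were rescaled together by trimmed mean of M-values, coded anew, and log2(normalised count + 1) was tested with limma 3.58.1 (trend, R 4.3.3) and Benjamini-Hochberg adjustment over 3160 genes at 0.05, two-sided. Fold changes are on this scale. The SEs are moderated over genes, and for ES enrichment and ribosome-bound RNA they follow the trend over all genes alone. The study left out ELA input replicate 1: 7 libraries without it were used for ES enrichment and for ribosome-bound RNA, and all 8, to keep 2 ELA inputs, for the other comparisons. The script was tested on simulated data, where it recovered the fold changes but made more false calls than the nominal share in ELA enrichment and total RNA, and missed many changed genes in the change in enrichment.

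The ribosomal protein genes and all lists were chosen with earlier results of these data known. In each comparison, values are given for the 5 genes with the largest change that passed in each direction, for those that passed against the majority, and for Rpl10a, Rpl5, Rpl11, Rpl3, Rps6, Rps14, Rps27a and Rpl36al, and in other lists for at most 3 genes; further genes were named after their values were seen. Single values of 3 of the 41 genes are not reported here, and these genes are counted in all numbers over the group. Transcript length and GC content (an early GENCODE mouse release) were matched by symbol for 3119 genes, among them all 41. For each symbol the protein-coding transcript with the lowest number was taken, which may not be the main one. Rps20, for example, was given 3706 bases for 360 coding bases. Alternatives were other scalings, pseudocounts (10 and 0.1), a mean of at least 200, replicate blocks, a length and GC correction (loess, span 0.5), each library left out, and, chosen after seeing the data, array weights, a block within each stage and the ELA inputs as 1 sample.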

Additional observations from a re-analysis of the deposited data

Results flagged for a closer look

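The ratio of Rpl10a-IP to input differed between ES and ELA, by a test of the difference itself (the interaction term in limma), for 38 of the 41 ribosomal protein genes, all lower in ELA, where 27.7% of all 3160 genes were called lower and 28.4% higher. Among the genes followed in the report, the log2 differences were −3.00 for Rps14, −2.06 for Rps19, −1.85 for Rpl36, −1.81 for Rps16, −1.80 for Rps15, −1.44 for Rps27a, −1.24 for Rpl36al, −0.605 for Rpl11, −0.466 for Rps6 and −0.328 for Rpl5. The log2 coding length correlated with the values of the 41 genes at r = 0.44, and 53 of 85 other genes with transcripts under 1000 bases were also called lower. With the replicate block and the length and GC correction the values of Rpl11, Rps6 and Rpl5 were above 0 and that of Rpl36al was −0.20, and none of these 4 was called.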

How the results depend on the processing

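The table was filtered by the authors, the ELA input libraries were shallow (median of 195 and 387 reads per ribosomal protein gene), and the count tests edgeR and DESeq2, although planned, were not run on reads read back from the values. The authors' size factors were not tried for the enrichment within a stage, since they are set within each fraction. Counting every matched gene, near-copies included, is the analysis as given.

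Of 1450 values recomputed under alternatives, 1338 kept their direction and their side of the threshold or moved by little. That share overstates stability, because many log2 values could not move. Replicate blocks, array weights and leaving out a library of another group mostly leave the compared group means as they were. The correction for transcript length and GC content with the replicate block moved most. It gave 22 lower, 3 higher and a median of −0.18 (large minus small 0.13) in ES, 27 lower, 5 higher and −0.45 in ELA, 10 lower, 9 higher and −0.010 in total RNA, 24 lower, 5 higher and −0.31 (large minus small −0.034) in ribosome-bound RNA, and 22 lower, 5 higher and −0.31 for the change in enrichment. It turned the sign of Rpl5 (−0.083), Rpl3 (0.053) and Rpl36al (0.056) in ES, Rpl5 (0.025) and Rpl3 (0.34) in ELA, Rpl10a (0.32) and Rps27a (0.0042) in total RNA, Rpl10a (1.04), Rpl11 (0.053), Rpl3 (0.21) and Rps6 (0.16) in ribosome-bound RNA, and Rpl5 (0.11), Rpl11 (0.064), Rpl3 (0.28) and Rps6 (0.18) in the change in enrichment. The cause was not tested. It also ended calls of Rpl11, Rps6 and Rpl36al in ELA, of Rpl11, Rpl3, Rps6 and Rpl36al in total RNA and of Rpl36al in the change in enrichment, and Rpl10a passed as higher in all 5 comparisons.

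Scaling by total reads shifted the median of all genes to −0.12 in ELA enrichment, with 993 genes higher and 1337 lower (1162 and 1176 otherwise), and that of ribosomal protein genes to −1.59. It made Rpl3 pass as lower in ELA (−0.24) and turned Rpl5 in ES (−0.011) and Rpl10a in the change in enrichment (−0.036). The authors' size factors moved the median of all genes to −0.12 in total and −0.14 in ribosome-bound RNA (−0.02 in each otherwise). The ribosomal protein median in ribosome-bound RNA was then −1.73. In ELA enrichment 1 gene, Rpl10a, was higher with median-of-ratios scaling, either replicate block, the ELA inputs as 1 sample, or 7 libraries. All 8 libraries gave 25 lower in ES. In total RNA, 7 libraries gave a large minus small difference of −0.018.

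With the most abundant gene of each class left out, the log2 large to small ratio relative to all libraries was 0.011 in ES Rpl10a-IP and −0.24 in ELA input. As a median over genes it was 0.024 in ES input, 0.021 in ES Rpl10a-IP, −0.13 in ELA input and 0.080 in ELA Rpl10a-IP, against −0.11, −0.00072, −0.20 and 0.32 with sums.

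Leaving out 1 library at a time gave 24 to 29 lower and 0 to 1 higher in ES, with a median of −0.54 to −0.32, a large minus small difference of −0.057 to 0.053 and Rpl5 at −0.059 to 0.075. In ELA it gave 38 to 39 lower and 0 to 1 higher, a median of −1.50 to −1.41 and a difference of −0.025 to 0.17. In total RNA 30 to 33 were lower and 1 to 2 higher, with 2 higher without ELA input replicate 2. In ribosome-bound RNA the difference was 0.15 to 0.24 and Rpl10a ran from −0.36 to 0.0080, the latter without ELA Rpl10a-IP replicate 2. For the change in enrichment 34 to 39 were lower, the difference was 0.14 to 0.28, Rpl10a ran from −0.13 to 0.24 and Rpl3 from −0.095 to 0.028. Rpl11 and Rps6 missed the threshold without ES input replicate 2 (adjusted p = 0.051 and 0.052). In ES, Rpl10a passed as higher without ES Rpl10a-IP replicate 2 (0.039).

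Over all genes, same-numbered replicates of different stages had correlations of deviations from −0.025 to 0.17, not all over 0.1, and were not taken as pairs (0.16 to 0.26 over the ribosomal protein genes), while ELA input and Rpl10a-IP of the same number deviated together (0.50, and 0.57 over the ribosomal protein genes). ES input and Rpl10a-IP of the same number did so only weakly (0.17, and 0.0062 over the ribosomal protein genes). The replicate block gave 29 lower in ES, 39 lower and 1 higher in ELA, 34 lower in total RNA, 41 in ribosome-bound RNA and 39 for the change in enrichment, and the block within each stage gave 38 for the last.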
